A study of Homo sapiens with 6 samples.

Results

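A set of 10 transcription factor genes of epithelial and stomach lineage was followed in AGS, a cell line established from a human stomach adenocarcinoma. They were picked by name, namely ELF3, EHF, KLF4, KLF5, GRHL1, GRHL2, GATA4, GATA6, HNF4A and SOX9, and each of the 10 names matched 1 of the 56303 entries of the count table. RNA sequencing counted their transcripts in AGS cells given a small interfering RNA against SRSF2 (siSRSF2, 3 libraries) and in AGS cells labelled WT (3 libraries). SRSF2 is a splicing factor of the serine/arginine-rich family. All 6 libraries come from this 1 line, in DMEM/F12 medium with serum. The labels give neither the dose and time of the siRNA nor whether WT cells received a control siRNA. They also do not say that replicates were separate cultures, so the p-values measure only the spread between these libraries, which may be technical.

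These genes encode DNA-binding proteins that set and keep the identity of lining tissues. ELF3 and EHF are ETS factors largely restricted to epithelia, and the grainyhead-like proteins GRHL1 and GRHL2 activate genes of cell junctions. KLF4 and KLF5 are related zinc-finger factors which in gut lining are linked to differentiated and to dividing cells. GATA4, GATA6 and the nuclear receptor HNF4A pattern the endoderm and its derivatives, and SOX9 marks progenitor cells of gut glands.

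Total counts ranged from 26610937 to 36651623 in siSRSF2 libraries and from 47518943 to 50021152 in WT libraries. The nuclear RNA MALAT1 took 5.98 to 6.60% of counts in siSRSF2 libraries and 2.84 to 3.17% in WT libraries, and its part in the results was not tested. SRSF2 was lower in the cells given its siRNA, at 22.7 ± 1.83 CPM in siSRSF2 and 45.0 ± 1.19 CPM in WT (SD, n = 3 each; log2 fold change -0.98, SE 0.064, edgeR adjusted p = 4.39e-13). CPM is the count scaled to a library of 1e+06 counts, with library sizes adjusted by TMM. Low counts were mostly even: between 4304 and 4902 entries of a library held exactly 2 counts, against 725 to 842 that held exactly 1. A small count may therefore rest on fewer sequenced fragments than it states. Whether read mates were counted singly was not stated. The epithelial label was checked on 6 markers, with a mixed result. The simple keratin genes KRT8 (2776 ± 101 CPM in siSRSF2, 3236 ± 156 CPM in WT) and KRT18 (1058 ± 73.0 CPM in siSRSF2, 1099 ± 53.5 CPM in WT) were abundant. EPCAM, KRT19 and CLDN4 were low, between 1.45 and 5.80 CPM, and CDH1, which encodes E-cadherin, was almost absent, with 12, 6 and 8 counts in siSRSF2 libraries and 12, 7 and 12 counts in WT libraries.

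RefSeq (GRCh38.p14) promoter windows, from 250 bases before to 50 bases after the annotated start, were read for 7 of the 10 genes. The 3 windows below are shown because ELF3 and GRHL1 rose most and KLF4 fell most among the 10 genes. Capitals mark 3 short motifs searched on both strands, the TATA box (TATAAA), the GC box (GGGCGG) and the CCAAT box (CCAAT), and no matches overlapped in these windows.
ELF3, chr1:202010337-202010636, plus strand: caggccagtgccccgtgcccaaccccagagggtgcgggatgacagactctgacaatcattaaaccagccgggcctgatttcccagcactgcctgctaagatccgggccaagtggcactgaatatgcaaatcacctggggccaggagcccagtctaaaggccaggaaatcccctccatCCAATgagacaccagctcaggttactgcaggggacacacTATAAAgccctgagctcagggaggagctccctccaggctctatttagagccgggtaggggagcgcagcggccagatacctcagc
GRHL1, chr2:9951443-9951742, plus strand: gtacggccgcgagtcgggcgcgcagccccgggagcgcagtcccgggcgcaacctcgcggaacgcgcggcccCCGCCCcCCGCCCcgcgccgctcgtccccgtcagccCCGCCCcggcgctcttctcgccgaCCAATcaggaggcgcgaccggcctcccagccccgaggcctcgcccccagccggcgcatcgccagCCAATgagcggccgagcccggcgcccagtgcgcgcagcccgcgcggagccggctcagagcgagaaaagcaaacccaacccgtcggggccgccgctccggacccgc
KLF4, chr9:107489720-107490019, minus strand: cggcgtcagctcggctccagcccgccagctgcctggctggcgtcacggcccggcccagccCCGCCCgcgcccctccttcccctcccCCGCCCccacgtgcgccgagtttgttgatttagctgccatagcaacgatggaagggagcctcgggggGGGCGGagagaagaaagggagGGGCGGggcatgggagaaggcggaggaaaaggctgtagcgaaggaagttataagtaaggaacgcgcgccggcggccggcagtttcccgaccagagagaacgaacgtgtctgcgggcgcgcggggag

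The ELF3 window held 1 TATA box, whose first base lies at -34 from the start, 1 CCAAT box at -73 and no GC box. The GRHL1 window held 3 GC boxes and 2 CCAAT boxes, and the KLF4 window held 4 GC boxes alone. Of the windows of the other genes read, 1 of the KLF5 windows also held a TATA box, at -194. Among all 35116 RefSeq windows of this length, 11.5% held a TATA box, 45.0% a GC box and 34.6% a CCAAT box. GC content was 59.0% for ELF3, 79.7% for GRHL1 and 69.0% for KLF4, beside a median of 58.7% over all windows. These matches describe the letters only and were not tied to the changes below.

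When SRSF2 was silenced, 4 of the 10 genes rose (ELF3, GRHL1, GATA6 and KLF5) and 2 fell (KLF4 and SOX9). EHF, GRHL2 and HNF4A were present at under 1 CPM and did not pass the test, and GATA4, with at most 2 counts in a library, was too low to be tested. The share called higher was 44.4%, beside 30.1% of all 23689 genes tested, and the share called lower was 22.2%, beside 29.0% of all genes tested. With library totals in place of TMM the calls over all genes became less even, with 8560 higher and 5492 lower, against 7129 higher and 6862 lower with TMM. In 7 of the 9 the libraries of the groups did not overlap in CPM, as was also the case for 63.8% of all genes tested. Among 9 genes such shares lie near the background, and no property of the list is read from them. The median log2 fold change was 0.54 over the 9 genes, the value of GRHL2, which did not pass, and 0.02 over all genes tested. In bulk RNA, fewer cells that express a gene and less of its RNA per cell cannot be told apart.

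**Figure D1:**
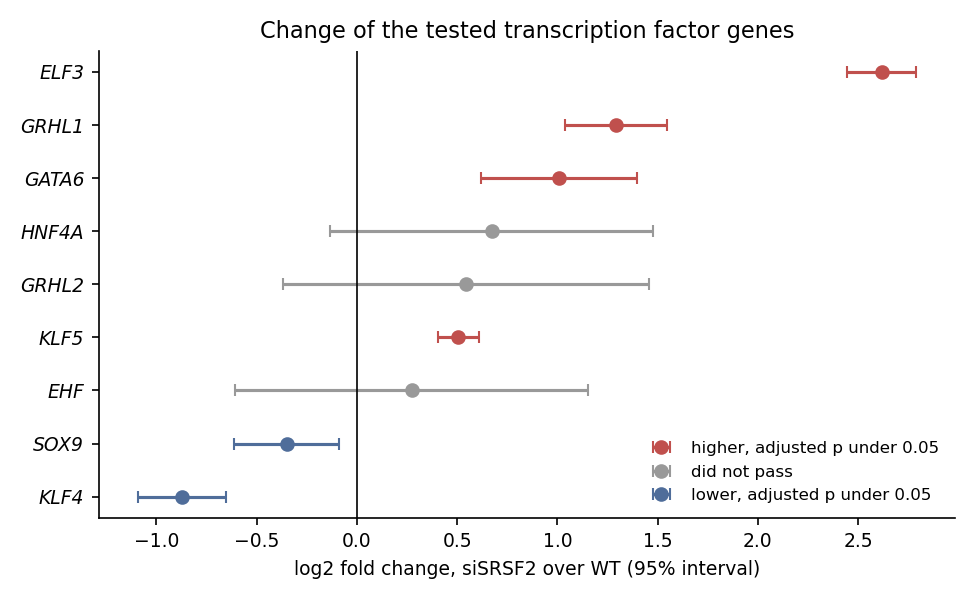
Log2 fold change (x axis, siSRSF2 over WT) of the 9 tested genes, with points for the edgeR estimate and bars for its approximate 95% interval. ELF3 stands at 2.62 with a narrow bar, KLF4 at -0.87, and the bars of HNF4A, GRHL2 and EHF cross 0.

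ELF3 showed the widest change of the group. This ETS factor (chromosome 1, 202007945 to 202017188, plus strand, GRCh38 positions) had 53.1, 50.4 and 50.7 CPM in siSRSF2 libraries 1 to 3, against 7.22, 7.86 and 10.03 CPM in WT libraries 1 to 3. Every siSRSF2 library thus lay several-fold above every WT library. These came from 1442, 1943 and 1757 counts in siSRSF2 and 344, 359 and 476 in WT. ELF3 rose 6.13-fold (log2 fold change 2.62, SE 0.087, edgeR adjusted p = 2.56e-16). Of the 23689 tested genes, 452 (1.91%) passed the test with a larger rise. It carries the window with the TATA box printed above.

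Entries that share exon positions with ELF3 moved with it. RP11-510N19.5, on the same strand (202011370 to 202015657, 664 shared exon bases), had 454, 596 and 556 counts in siSRSF2 and 95, 110 and 170 counts in WT (log2 fold change 2.59, SE 0.14, edgeR adjusted p = 5.59e-12). RP11-465N4.4, on the opposite strand (202000094 to 202010353, 554 shared exon bases), had 95, 155 and 115 counts in siSRSF2 and 36, 31 and 35 counts in WT (log2 fold change 2.32, SE 0.20, edgeR adjusted p = 1.71e-10). The shared bases were 9.23% and 7.70% of the ELF3 exons. RP11-510N19.5 lies within the span of ELF3 on its strand, so strand cannot separate their reads in shared bases. For RP11-465N4.4, whether counting used strand was not stated. Whether reads in shared bases were dropped or counted for both entries was also not stated. These entries are therefore not taken as measurements independent of ELF3.

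EHF, the other epithelial ETS factor of the group (chromosome 11, 34621093 to 34661057), was nearly silent. Its counts were 12, 14 and 10 in siSRSF2 libraries and 12, 14 and 16 in WT libraries, or 0.365 ± 0.0765 CPM in siSRSF2 and 0.298 ± 0.0432 CPM in WT (SD, n = 3 each). The groups overlapped, and the log2 fold change of 0.27 had a 95% interval from -0.61 to 1.15 (edgeR adjusted p = 0.63). The estimate for ELF3 lies above this interval.

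**Figure D2:**
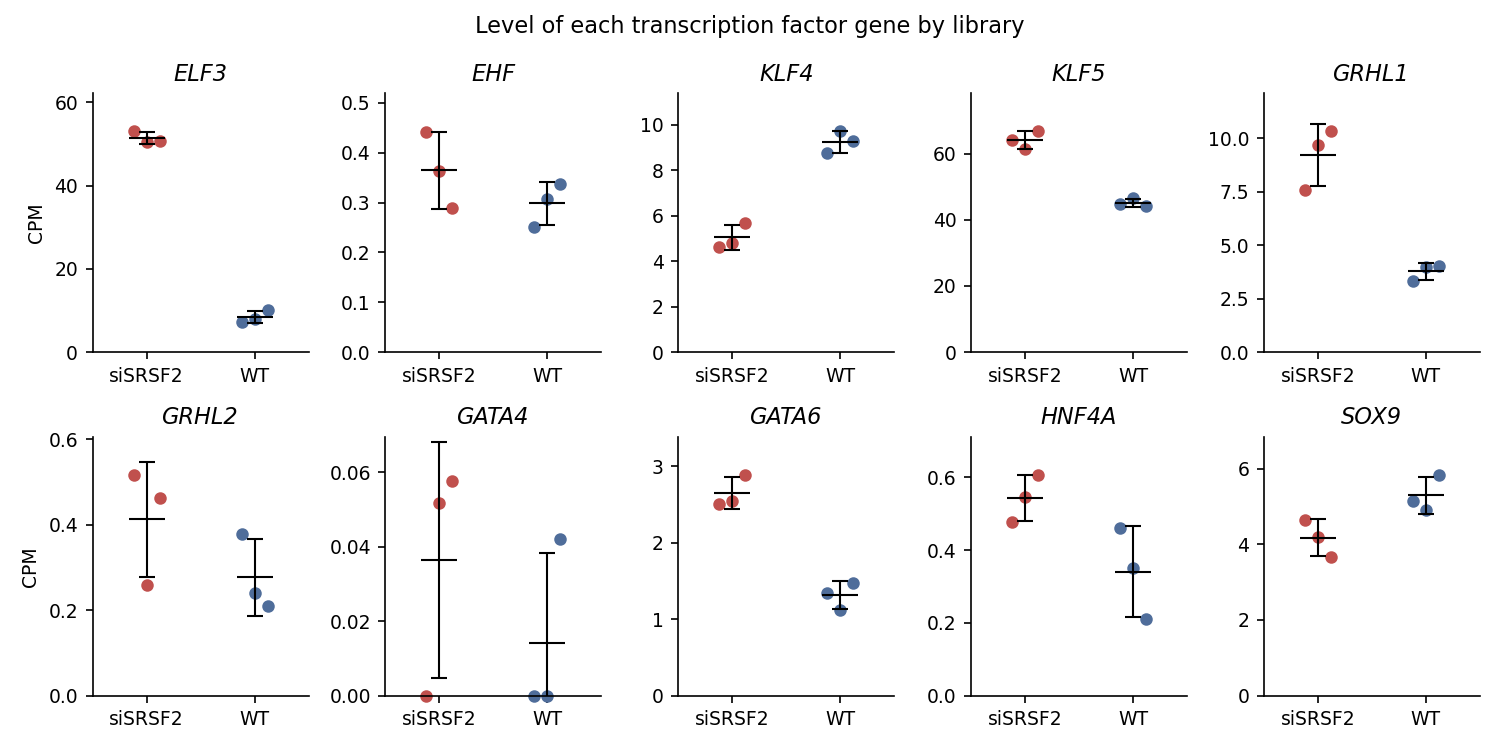
CPM (y axis, from 0, with its own scale per panel) of each of the 10 genes in the 3 siSRSF2 libraries (left of each panel) and the 3 WT libraries (right), points for libraries, bars for mean ± SD. The groups stand apart for ELF3, GRHL1, GATA6, KLF5, KLF4, SOX9 and HNF4A, and overlap for EHF, GRHL2 and GATA4.

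The grainyhead-like genes differed in level. GRHL1 (chromosome 2, 9951693 to 10002277) had 7.58, 9.70 and 10.3 CPM in siSRSF2 libraries and 3.32, 3.98 and 4.03 CPM in WT libraries. The lowest siSRSF2 library, replicate 1, was still above the highest WT library. GRHL1 rose 2.45-fold (log2 fold change 1.29, SE 0.13, edgeR adjusted p = 2.01e-09). GRHL2 (chromosome 8, 101492432 to 101669726), whose product is known to activate CDH1 and claudin genes in other epithelia, held 14, 10 and 16 counts in siSRSF2 and 18, 11 and 10 counts in WT. Its CPM values overlapped between groups, with a log2 fold change of 0.54 and a 95% interval from -0.37 to 1.46 (edgeR adjusted p = 0.332). An opposite-strand entry that shares 50 exon bases with GRHL2, KB-1562D12.1, had 0 counts in all 6 libraries.

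The zinc-finger genes KLF4 and KLF5 moved in opposite directions. KLF5 (chromosome 13, 73054976 to 73077542) had 64.3, 61.4 and 66.8 CPM in siSRSF2 libraries, against 44.9, 46.5 and 44.1 CPM in WT libraries. The groups did not overlap, and KLF5 rose 1.42-fold (log2 fold change 0.51, SE 0.053, edgeR adjusted p = 4.70e-09). KLF4 (chromosome 9, 107484852 to 107490482, minus strand) had 4.64, 4.80 and 5.69 CPM in siSRSF2 libraries, against 8.75, 9.72 and 9.29 CPM in WT libraries. All siSRSF2 libraries were below all WT libraries, and KLF4 fell by 0.87 on the log2 scale (SE 0.11, edgeR adjusted p = 1.89e-07), which puts WT 1.83-fold above siSRSF2. Of all tested genes, 8.16% passed the test with a further fall.

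GATA6 was the GATA factor detected of this pair. This endodermal regulator (chromosome 18, 22169443 to 22202528) had 2.50, 2.54 and 2.89 CPM in siSRSF2 libraries and 1.34, 1.12 and 1.48 CPM in WT libraries, from 68, 98 and 100 counts in siSRSF2 and 64, 51 and 70 counts in WT. The groups did not overlap, and GATA6 rose 2.01-fold (log2 fold change 1.01, SE 0.20, edgeR adjusted p = 8.43e-05). An opposite-strand entry at its far end, RP11-627G18.1 (22200619 to 22205229), shares 321 exon bases with it and had a log2 fold change of 1.14 (SE 0.23, edgeR adjusted p = 9.03e-05). The shared bases were 8.14% of the GATA6 exons, and reads within them cannot be told apart without strand information. GATA4 (chromosome 8, 11676959 to 11760002) held 0, 2 and 2 counts in siSRSF2 libraries and 0, 0 and 2 counts in WT libraries. These lie under a floor of 3 counts, which corresponds to between 0.0630 and 0.110 CPM in a library by counting error alone, so no fold is given.

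HNF4A (chromosome 20, 44355700 to 44434596), a nuclear receptor of intestinal and hepatic cells, was also near silent. Its counts were 13, 21 and 21 in siSRSF2 and 22, 16 and 10 in WT, and scaled levels were 0.478, 0.545 and 0.606 CPM in siSRSF2 against 0.462, 0.350 and 0.211 CPM in WT. The groups just failed to overlap, but the log2 fold change of 0.67 did not pass (95% interval -0.13 to 1.48, edgeR adjusted p = 0.166).

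SOX9 (chromosome 17, 72121020 to 72126420) had 4.64, 4.20 and 3.67 CPM in siSRSF2 libraries and 5.14, 4.90 and 5.84 CPM in WT libraries. The groups did not overlap, though the highest siSRSF2 and the lowest WT library were close. SOX9 fell by 0.35 on the log2 scale (SE 0.13, edgeR adjusted p = 0.0273). This call ended with library totals in place of TMM (log2 fold change -0.22, edgeR adjusted p = 0.163), with DESeq2 (adjusted p = 0.0741) and without siSRSF2 replicate 3 (adjusted p = 0.107) or WT replicate 3 (adjusted p = 0.127), among other settings, and over all alternatives the adjusted p ranged from 0.00823 to 0.191. The other 5 calls among the 10 genes held under every alternative tried.

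Levels of different genes were compared per length, as TPM (counts divided by the merged exon length and scaled to the same sum in every library). KLF5 stood first in both groups, at 42.7 ± 1.85 TPM in siSRSF2 and 27.6 ± 1.10 TPM in WT (SD, n = 3 each). ELF3 was the second gene in siSRSF2 cells, at 18.5 ± 0.295 TPM, and the fourth in WT cells, at 2.77 ± 0.460 TPM. In siSRSF2 cells KLF4 (3.57 ± 0.449 TPM), GRHL1 (3.01 ± 0.558 TPM) and SOX9 (2.74 ± 0.276 TPM) followed. KLF4 overlapped GRHL1 between libraries, and GRHL1 overlapped SOX9. In WT cells the second place was that of KLF4 (6.02 ± 0.356 TPM), followed by SOX9 (3.20 ± 0.255 TPM), which overlapped ELF3. GATA6 came next at 1.74 ± 0.164 TPM in siSRSF2, and in WT after GRHL1 at 0.790 ± 0.10 TPM. EHF, HNF4A and GRHL2 lay between 0.175 and 0.215 TPM in siSRSF2 and between 0.109 and 0.162 TPM in WT, each overlapping its neighbour, and GATA4 was last in both groups. The ELF3 entry joins exons of 10 annotated transcripts over 7191 bases, so its TPM is understated if the cells use shorter ones.

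**Figure D3:**
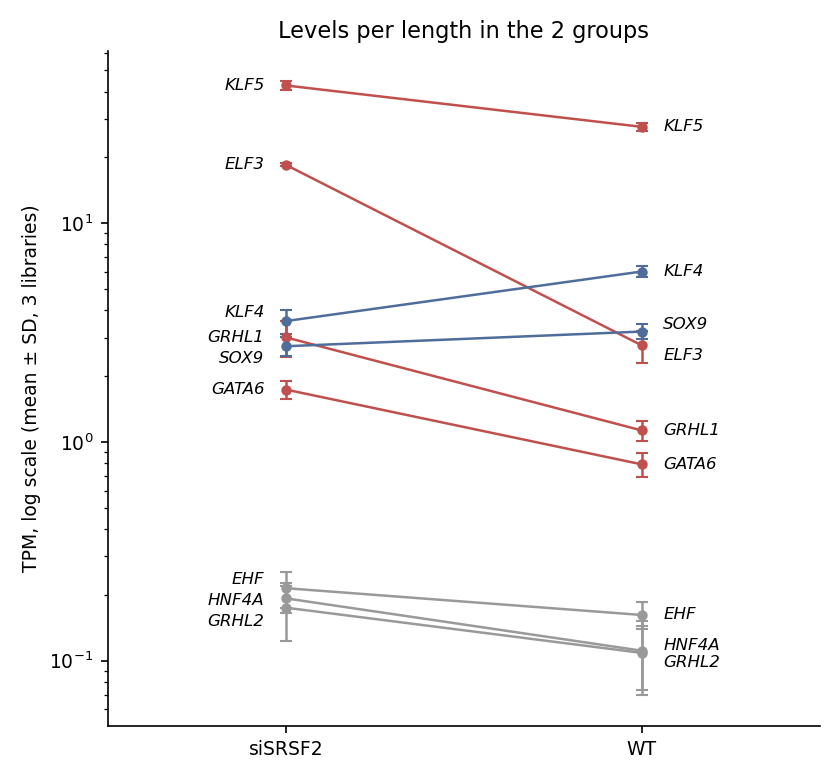
TPM (y axis, log scale) of 9 genes in siSRSF2 (left) and WT (right), points for means and bars for SD over 3 libraries, red for genes that rose, blue for genes that fell and grey for genes that did not pass. ELF3 moves across SOX9 and KLF4 between the groups, and 3 genes stay under 0.3 TPM in both. GATA4, with 0 counts in some libraries, is not drawn.

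Ratios between related genes within a library do not depend on how libraries are scaled, and were taken after adding 0.5 to each count. The log2 ratio of ELF3 to EHF counts was 6.85, 7.07 and 7.39 in siSRSF2 libraries and 4.78, 4.63 and 4.85 in WT libraries, a difference of 2.35. The log2 ratio of KLF4 to KLF5 was -3.79, -3.67 and -3.55 in siSRSF2 and -2.36, -2.26 and -2.24 in WT, a difference of -1.38. For both pairs the groups did not overlap, and an exact two-sided permutation test gave p = 0.1, the lowest value possible with 3 libraries a group (0.2 adjusted over the 4 pairs). The ratio of GRHL1 to GRHL2 overlapped between groups, at 4.48 ± 0.663 in siSRSF2 and 3.76 ± 0.580 in WT on the log2 scale (exact permutation p = 0.3, adjusted p = 0.4). The ratio of GATA4 to GATA6 rests on at most 2 counts of GATA4 and gave p = 1 in the same exact permutation test.

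**Figure D4:**
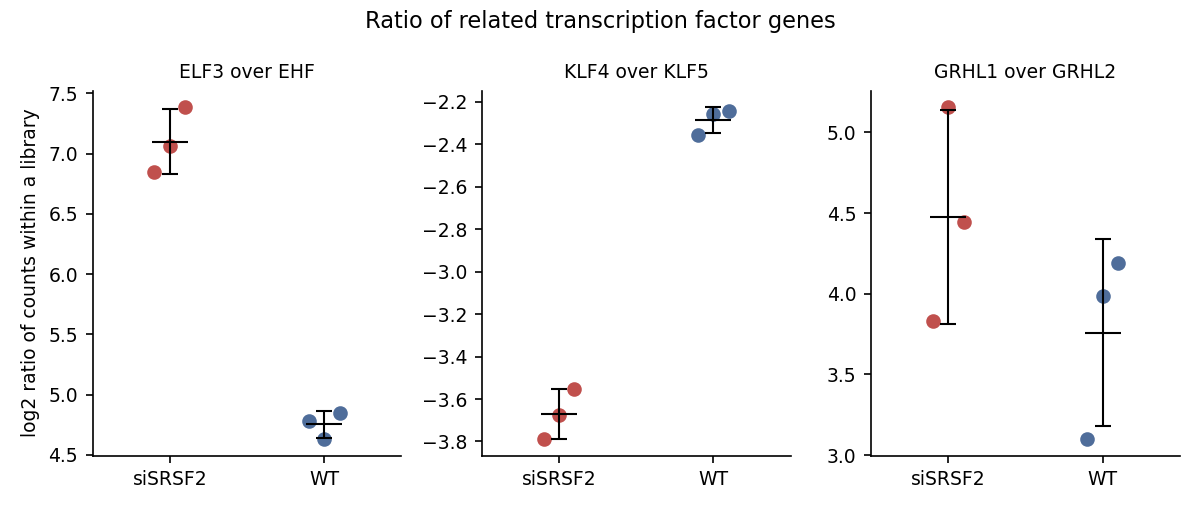
Log2 ratio of counts of related genes within each library (y axis, own scale per panel) for 3 pairs, siSRSF2 left and WT right, points for libraries, bars for mean ± SD. The groups stand apart for ELF3 over EHF and for KLF4 over KLF5 and overlap for GRHL1 over GRHL2.

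Other genes of the same families and programmes were read from lists chosen with earlier results of these data known. Of 18 close relatives of the 10 genes, 13 were tested, 5 were higher (2 without siSRSF2 replicate 3) and 5 lower (median log2 fold change -0.02). This was 38.5% of those tested in each direction, beside 30.1% higher and 29.0% lower over all genes tested. In the grainyhead superfamily UBP1 (145 ± 6.46 CPM in siSRSF2, 253 ± 4.97 CPM in WT) and TFCP2 (log2 fold change -0.59) fell while GRHL1 rose. GATA2, at 26.1 ± 1.5 CPM in siSRSF2 and 42.3 ± 2.37 CPM in WT, fell while GATA6 rose (log2 fold change -0.70, SE 0.063, edgeR adjusted p = 3.40e-10). Among ETS relatives of ELF3, ELF2 rose 1.51-fold. ELF1 (log2 fold change -0.41, edgeR adjusted p = 6.82e-06) and ELF4 (-0.42, edgeR adjusted p = 1.54e-06) fell. ELF5 had at most 2 counts in a library and was not tested. GRHL3 did not pass (log2 fold change 0.49, edgeR adjusted p = 0.38). SOX8 (log2 fold change 1.16, edgeR adjusted p = 0.00733) and SOX10 (0.95, edgeR adjusted p = 0.0015) rose while SOX9 fell. The call of SOX8 was lost without siSRSF2 replicate 3. Of 26 further regulators of gut and epithelium, 12 were too low to test, among them SOX2, FOXA2 and CDX1. Of the 14 tested, 3 rose and 4 fell (2 without siSRSF2 replicate 2), or 21.4% and 28.6%, beside 30.1% and 29.0% of all genes. Among these were ZFPM1 (log2 fold change 0.67), a GATA cofactor, and TFAP2A (0.34) higher and FOXA1 (-0.99) and HHEX (-0.49) lower. FOXA1, a pioneer factor of endoderm, had 1.76 ± 0.430 CPM in siSRSF2 and 3.49 ± 0.354 CPM in WT (edgeR adjusted p = 4.76e-05).

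Genes of epithelial junctions and surface were 7 higher, 2 lower and 17 not past the test of 26 tested. The shares of 26.9% higher and 7.69% lower were both below those of all genes tested, 30.1% and 29.0%. Their median log2 fold change was 0.24. CLDN7, a tight junction claudin, rose 5.88-fold (10.05 ± 0.481 CPM in siSRSF2, 1.70 ± 0.114 CPM in WT), ERBB3, a receptor of the EGF receptor family, rose 6.39-fold, and LLGL2, a polarity gene, rose 4.33-fold. AP1M2, of the epithelial clathrin adaptor, fell to 7.56 ± 0.355 CPM in siSRSF2, against 15.1 ± 0.137 CPM in WT. CDH1 did not pass (log2 fold change 0.27, SE 0.54, edgeR adjusted p = 0.694). Of 28 genes of gastric and intestinal differentiation, 14 were too low to test, including the trefoil genes TFF1, TFF2 and TFF3, and of the others 6 rose and 2 fell, or 42.9% and 14.3%, beside 30.1% and 29.0% of all genes. MUC1, a membrane mucin, rose 3.05-fold (52.7 ± 2.94 CPM in siSRSF2, 17.3 ± 0.937 CPM in WT), and KRT20, a keratin of differentiated gut cells, 5.74-fold with 53, 144 and 56 counts in siSRSF2 libraries against 17, 18 and 25 in WT libraries. LIPF, which encodes gastric lipase, had 24, 34 and 42 counts in siSRSF2 and 3, 5 and 1 counts in WT (edgeR adjusted p = 1.73e-07). The aminopeptidase gene ANPEP fell (log2 fold change -0.71).

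Mesenchymal genes and repressors of the epithelial programme were all 9 tested, 2 higher and 3 lower (median log2 fold change -0.11). These shares, 22.2% and 33.3%, lie near the 30.1% and 29.0% of all genes. CDH2, encoding N-cadherin, fell to 65.0 ± 4.07 CPM in siSRSF2, against 120.4 ± 8.51 CPM in WT, and VIM (-0.21) and TWIST2 (-0.45) fell by less. TWIST1 rose 1.90-fold, and ZEB1, known to repress GRHL2, did not pass (log2 fold change -0.08, SE 0.053, edgeR adjusted p = 0.205). With scaling by library totals the fall of VIM was lost (-0.08 on the log2 scale, edgeR adjusted p = 0.154), as was that of KRT8 (-0.09, edgeR adjusted p = 0.0697). Markers of other cell types were checked as 9 genes. CD3E had 0, 2 and 0 counts in siSRSF2 and none in WT, and PTPRC had at most 10 counts in a library. Summed fibroblast markers were 39.8 to 43.7 CPM in siSRSF2 libraries and 17.5 to 18.0 CPM in WT libraries, with COL1A1 and DCN higher. COL1A2 did not pass (log2 fold change 0.31, edgeR adjusted p = 0.375). Summed endothelial markers were 0.960 to 1.96 CPM in siSRSF2 libraries and 3.01 to 3.24 CPM in WT libraries, with PECAM1 and CDH5 lower. VWF, too low to test, had 4, 6 and 7 counts in siSRSF2 and 6, 0 and 4 counts in WT, and its CPM was higher in siSRSF2. Summed leukocyte markers were 23.9 to 26.6 CPM in siSRSF2 and 23.3 to 24.9 CPM in WT, nearly all from CD68. Their part in the changes above was not tested.

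**Figure D5:**
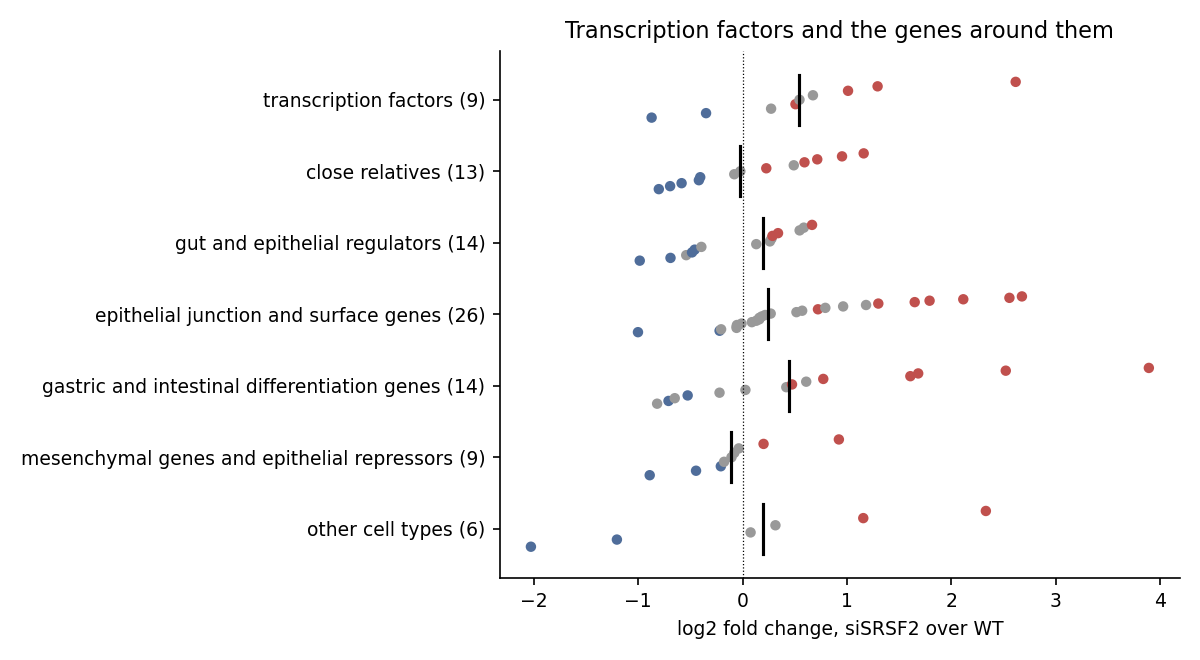
Log2 fold change (x axis, siSRSF2 over WT) of each tested gene of 7 lists (y axis, number tested in brackets), red for genes that rose, blue for genes that fell, grey for genes that did not pass, and a vertical line for the median. Values spread on both sides of 0 in every list.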

How the data were processed

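Raw counts by gene name were deposited for 6 libraries. The submitters' processing notes list HISAT2 2.0.5, featureCounts 1.5.0-p3 and the build mm10, which is murine. The table holds human names and positions, and all 10 genes have the start and end of GENCODE release 29 (GRCh38), as do 93.1% of the 36027 names found once there. Library preparation used SMARTER mRNA-Seq reagents, per the labels' protocols. Of the names, 28 had become dates in spreadsheet software, none of them in a list used here.

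Counts were tested in R 4.3.3 with edgeR 4.0.16: filterByExpr (minimum count 10) kept 23689 genes, libraries were scaled by TMM, and a robust quasi-likelihood F test compared siSRSF2 with WT, with Benjamini-Hochberg adjustment over all tested genes at 0.05. Each SE is the absolute log2 fold change over the root of F, and 95% intervals were taken from the SE with normal quantiles. TPM used the deposited exon lengths. Depth was lower in siSRSF2 libraries, so their low counts are less precise, and floors cover counting error only.

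The text names all 10 genes, entries sharing their exons, SRSF2 and MALAT1, plus, of each list, the 4 genes of smallest p. It also names the cell type markers (epithelial EPCAM, KRT8, KRT18, KRT19, CDH1 and CLDN4, and those of other cell types). ELF1, ELF4, GRHL3, SOX8, SOX10, ZEB1 and the untested genes were chosen after their values were seen. Members and lists were chosen with earlier results of these data known. The pipeline was also run on simulated counts, with changes planted in far fewer genes than were called here. That run therefore does not measure its error in these data. Alternatives are given below, among them DESeq2 1.42.0 and limma 3.58.1 voom.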

Additional observations from a re-analysis of the deposited data

How the results depend on the processing

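ELF3, GRHL1, GATA6, KLF5 and KLF4 kept their direction and their call under all 15 alternatives, with log2 fold changes of 2.51 to 2.76, 1.2 to 1.43, 0.90 to 1.14, 0.43 to 0.64 and -0.98 to -0.74. The count of the 10 genes called lower became 1 with library totals, with a mean CPM of at least 1, with DESeq2 and with a test against 1.2-fold, in each case through SOX9, and was 1 to 2 when libraries were left out in turn. EHF, GRHL2 and HNF4A passed in no setting in which they were tested. A stricter filter removed all 3, and counts halved, chosen after seeing the even counts, removed EHF and GRHL2. Library totals moved the median of all genes by 0.13 and left 1 epithelial gene lower and 9 higher. Without a filter 3 close relatives and 1 mesenchymal gene were higher and 4 epithelial genes lower. Close relatives called higher numbered 3 with DESeq2, with a mean CPM of at least 1 and against 1.2-fold, and 2 to 5 with libraries left out. Against 1.2-fold, 1 gut regulator and 1 mesenchymal gene were higher and 1 epithelial gene lower. With a mean CPM of at least 1, 1 marker of other cell types was lower, and gut regulators called lower were 2 to 4 with libraries left out. The difference in the GATA4 to GATA6 ratio ranged from -0.16 to 0.94 with libraries left out and changed sign. Deviations of same-numbered libraries correlated at -0.047 to 0.013, and those of differently numbered libraries at -0.022 to 0.066. With 3 libraries a group this shows no sign of pairing by number but cannot exclude such pairing. With the replicate block 6927 genes were higher and 6770 lower, and no call among the 10 genes changed. The causes were not tested, apart from the lost genes of the stricter filters. At this depth genes under 1 CPM could show only wide intervals.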
